A study of Mus musculus with 4 samples.

Results

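The 10 genes of MHC class II presentation were followed across the leukocytes of a mouse pancreatic tumour. They were chosen by symbol from the gene list of the count matrix, and all 10 were found among its 32285 genes: H2-Aa, H2-Ab1, H2-Eb1, Cd74, H2-DMa, H2-DMb1, H2-DMb2, H2-Oa, H2-Ob and Ciita. The cells were live CD45+ leukocytes sorted from subcutaneous KPC tumours, a transplanted pancreatic cancer line from genetically engineered mice, grown in young adult male C57BL/6 mice. The first of the 4 groups was untreated, with no vehicle named. Another received the STING agonist ADU-S100 once into the tumour. Another received the LTbR agonist, the antibody 4H8 against the lymphotoxin beta receptor, repeatedly into the peritoneum. The last received the STING and LTbR agonist together and is called the combination. All groups carried the same tumour line, and their tumours were taken at one time after implantation.

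The tumours of a group were pooled before sorting, so each group was 1 library of single-cell 5′ RNA counts and no difference between groups could be tested. The values below are levels, ratios and shares with 95% intervals that cover counting error only, not the sampling of cells, tumours or mice. CPM is the number of UMIs of a gene, each a captured mRNA molecule, per 1000000 UMIs of the cells of a class in a library. A ratio is the log2 ratio of CPM + 10 between libraries, and it is called past the fold at 0.5 or more in size (1.41-fold) with at least 50 UMIs in both libraries together.

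After the study's quality filter 23011 of 24839 barcodes were left, 6783 untreated, 3748 STING agonist, 7147 LTbR agonist and 5333 combination, with median depths of 5750 to 7094 UMIs. Ptprc, which encodes CD45, had a UMI in 93.6% to 95.7% of cells, and Krt8, a keratin of the tumour cells, in 0.0938% to 0.855%. Epcam and Col1a1, also used as tumour or stroma markers, had one in 2.09% to 3.09% and in 0.406% to 0.987%. Krt8 was lowest and Epcam highest in the combination. Of the barcode sequences, 284 occurred in more than 1 library. Cells were clustered without the class II genes, and clusters were named by markers that hold no class II gene: 4735 macrophage-like cells, 4728 monocyte-like, 1578 dendritic-like and 619 B-like, beside 7802 T- or NK-like cells as a class that should hold little class II. B-like cells numbered 46 untreated, 14 STING agonist, 131 LTbR agonist and 428 combination, and the untreated and STING agonist values of this class are accordingly coarse.

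MHC class II molecules show peptides of engulfed proteins to CD4+ T cells. H2-Aa and H2-Ab1 encode the chains of the H2-A heterodimer, and H2-Eb1 the beta chain of H2-E, whose alpha chain C57BL/6 mice cannot make. Cd74, the invariant chain, holds the groove closed on the way to the endosome, H2-DM (H2-DMa with H2-DMb1 or H2-DMb2) swaps its remnant for a peptide, and H2-O (H2-Oa with H2-Ob) holds H2-DM back. Ciita is the co-activator that switches the family on. It binds no DNA itself but sits on the proteins that hold the X and Y boxes of class II promoters. Dendritic cells and B cells express it constitutively, macrophages mainly after interferon-gamma, and dendritic cells are known to close the Ciita gene as they mature.

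The X and Y boxes can be read from promoters, and these are shown as background. Their part in the levels below was not tested. Windows from 250 bases before to 50 after a RefSeq transcription start (build GRCm38.p6) were found for 7 of the 10 genes, 8 windows in all. The capitals mark AAC, the end of the X box core, and ATTGG, the Y box core, which is the CCAAT box read on the other strand. Each stretch is written 5′ to 3′ on the strand of its gene, and all are from chromosome 17.
H2-Aa (chr17:34287855-34287914, minus strand): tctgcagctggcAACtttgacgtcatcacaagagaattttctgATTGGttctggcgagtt
H2-Eb1 (chr17:34305766-34305824, plus strand): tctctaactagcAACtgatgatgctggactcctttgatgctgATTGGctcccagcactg
H2-DMb1 (chr17:34153087-34153146, plus strand): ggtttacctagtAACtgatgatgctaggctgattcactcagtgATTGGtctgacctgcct
H2-DMb2 (chr17:34145116-34145175, plus strand): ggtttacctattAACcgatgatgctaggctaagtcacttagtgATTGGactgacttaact
H2-Oa (chr17:34092293-34092352, plus strand): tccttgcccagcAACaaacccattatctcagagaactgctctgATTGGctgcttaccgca
H2-Ob (chr17:34238808-34238864, plus strand): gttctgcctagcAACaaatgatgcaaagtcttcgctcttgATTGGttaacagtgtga

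AAC followed by ATTGG on the same strand after 25 to 28 bases, searched on both strands, was present for 6 of the 7 genes and in 2.49% of 32851 windows of all genes. This pattern was set after these promoters had been seen, so the contrast is a description. ATTGG alone, on either strand, was in 7 of the 8 member windows and in 37.4% of all windows. The stretches of H2-DMb1 and H2-DMb2 are near copies, as the genes are: their transcripts were identical at 93.9% and 94.1% of aligned bases for the 2 closest H2-DMb2 isoforms. Of the 10 genes, 8 lie within 224.3 kb of chromosome 17 (GRCm38), where H2-DMa spans 34119541 to 34139101 and H2-Ab1 34257689 to 34269419. Ciita lies on chromosome 16, from 10480059 to 10528418, and Cd74 on chromosome 18.

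Class II mRNA was highest in the dendritic-like cells, then in macrophage-, B- and monocyte-like cells, an order that held in 4 of 4 libraries. Summed over H2-Aa, H2-Ab1, H2-Eb1 and Cd74, the dendritic-like cells held 40702 CPM untreated, 42412 STING agonist, 34303 LTbR agonist and 40092 combination, which is 3.43% to 4.24% of all their UMIs. Macrophage-like cells held 32126, 39013, 28431 and 37293 CPM in the same order. The ranges of these 2 classes over libraries overlapped. B-like cells held 23343 to 27397 CPM, below every macrophage-like value, and monocyte-like cells 13512 to 16464 CPM, below every B-like value. In T- or NK-like cells the sum was 253 to 579 CPM, and the median cell had no class II UMI among 1000 UMIs.

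Of the dendritic-like cells, 259 (16.4%) formed sub-cluster 8, led by Cxcl10, Tgm2, Tgfbi and Ifit2, which scored highest for monocyte markers. They made up 30.3% of the cDC2-like cells, and their sum was 43693 to 52181 CPM.

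Within the dendritic-like class the sum differed more between subsets than between libraries. The cDC2-like cells (conventional dendritic cells of type 2, which present mainly to CD4+ T cells) held 47146 to 53697 CPM, and the cDC1-like cells (type 1, which cross-present to CD8+ T cells), 9 to 53 cells a library, 45097 to 52946 CPM. These 2 subsets overlapped. The mature DC-like cells, which carry the migration receptor Ccr7 and the actin bundler Fscn1, held 12427 to 28127 CPM, and the pDC-like cells (plasmacytoid dendritic cells) 5664 to 9606 CPM.

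**Figure D1:**
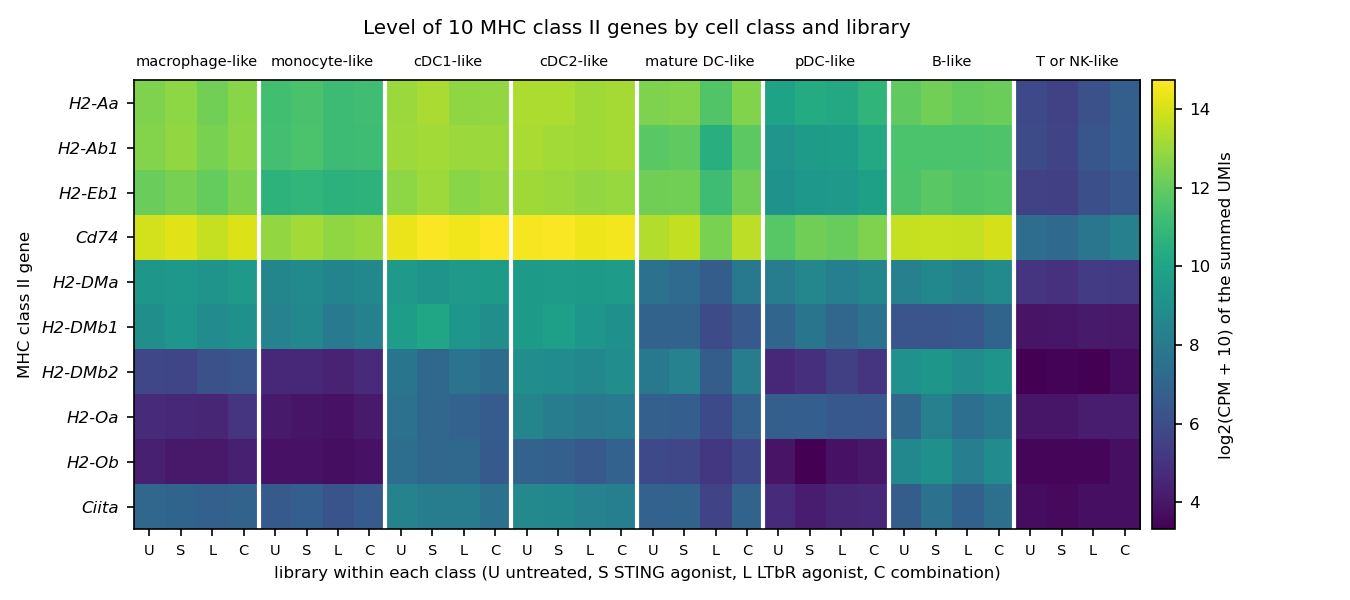
Level of each of the 10 genes (rows) as log2 of CPM + 10, shown by colour, in each class or subset and library (columns; U untreated, S STING agonist, L LTbR agonist, C combination). Cd74 is the brightest row and the T or NK-like block the darkest, and within the mature DC-like block the L column is darker than its neighbours, as for H2-Aa at 3177 CPM against 5949 in U.

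For H2-Aa alone, cDC2-like cells held 10262 CPM untreated, 10189 STING agonist, 8742 LTbR agonist and 9349 combination, and macrophage-like cells 5816, 7001, 5066 and 6746. B-like cells held 3929, 5001, 4192 and 4635 CPM of H2-Aa, and monocyte-like cells 2439, 2774, 2278 and 2383. Cd74 followed the same order, with 22244 to 26237 CPM in cDC2-like, 13741 to 19253 in macrophage-like, 13557 to 16347 in B-like and 7365 to 8955 in monocyte-like cells. Cd74 took the larger part of the 4 summed genes in the pDC-like (62.1%) and B-like (59.0%) cells and the smaller part in cDC2-like (46.9%) and mature DC-like cells (44.5%).

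The peptide editors were divided differently from the classical genes. UMIs are read from the 5′ end of each molecule, so genes are compared here by molecules without a length correction. H2-DMa was at 729 to 755 CPM in cDC2-like and 584 to 733 in cDC1-like cells. It was at 597 to 692 CPM in macrophage-like cells, 347 to 427 in monocyte-like and 308 to 415 in B-like cells. The DM beta chain came from different copies by class. H2-DMb2 was 4.20% of H2-DMb1 plus H2-DMb2 in monocyte-like cells over all libraries, 9.28% in macrophage-like, 39.7% in cDC2-like, 70.1% in mature DC-like and 84.3% in B-like cells. The order monocyte-, macrophage-, cDC2-, mature DC- and B-like held without overlap of the ranges over the 4 libraries, which were 3.44% to 4.66%, 6.21% to 12.3%, 35.3% to 47.7%, 63.8% to 76.6% and 83.3% to 90%. The cDC1- and pDC-like cells are outside this order, and their ranges overlapped the macrophage-like one. Over all libraries they held 185 and 21.9 CPM of H2-DMb2 beside 766 and 145 CPM of H2-DMb1. The cDC2-like percentage pools parts that differed, and its place in the order is that of the pooled cells. Untreated, H2-DMb2 was at 37.8 CPM beside 1011 of H2-DMb1 in dendritic sub-cluster 9 (23 cells). The values were 248 beside 917 CPM in sub-cluster 8 and 655 beside 666 CPM in sub-cluster 5. The copies share 15.0% to 15.8% of their 90-base stretches exactly, so some reads may be assigned to either copy or dropped, and the percentages are uncertain to that extent. The same counting was applied to every class.

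H2-O, the DM inhibitor, was highest in B-like and dendritic-like cells. H2-Ob was at 396, 514, 287 and 445 CPM in B-like cells, against 80.8 to 109 in cDC2-like and 7.0 to 9.9 in macrophage-like cells. H2-Oa was at 126, 300, 168 and 237 CPM in B-like cells and at 354, 275, 225 and 260 in cDC2-like cells. Per 100 UMIs of the H2-DM genes there were 59.4 UMIs of the H2-O genes in B-like cells, 27.5 in mature DC-like, 20.9 in cDC2-like, 20.1 in pDC-like, 17.7 in cDC1-like, 2.04 in macrophage-like and 1.53 in monocyte-like cells. The pDC-like value rests almost only on H2-Oa, with 206 UMIs against 10 of H2-Ob, the other chain of H2-O. The cDC2-like value pools parts that differed. Untreated, the H2-O genes were at 707 CPM beside 2109.5 of the H2-DM genes in dendritic sub-cluster 5. In sub-cluster 9 they were at 109 beside 1821 CPM.

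**Figure D2:**
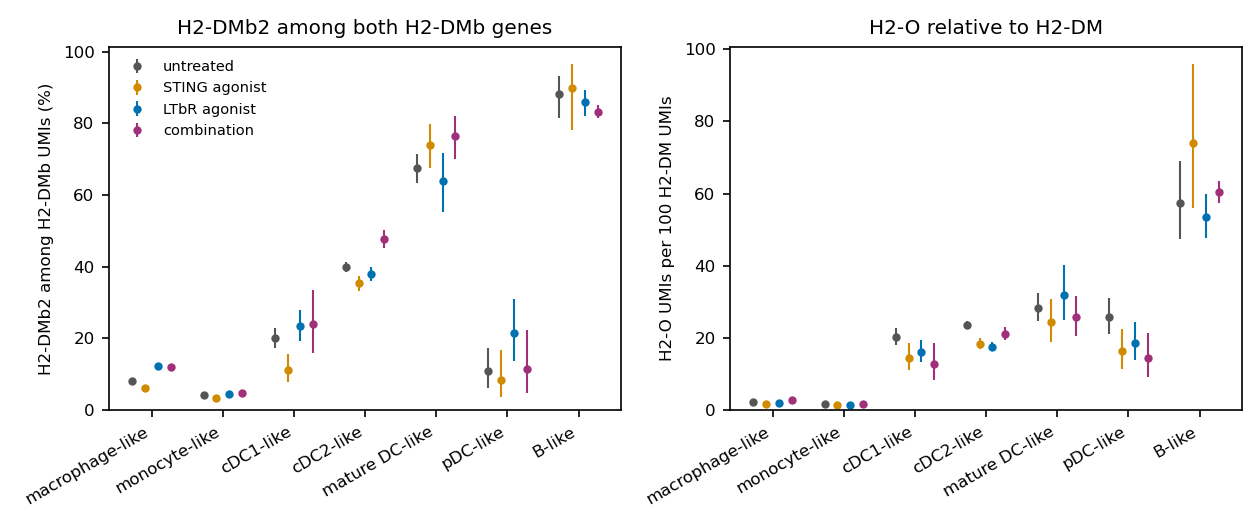
H2-DMb2 as a percentage of H2-DMb1 plus H2-DMb2 UMIs (left) and H2-O UMIs per 100 H2-DM UMIs (right), by class or subset, with a point and a 95% counting interval for each library. B-like cells stand highest in both panels, at 83.3% to 90% on the left, and monocyte-like cells lowest, at 3.44% to 4.66%.

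Ciita was at 297 to 399 CPM in cDC2-like cells, 103 to 126 in macrophage-like, 93.2 to 186 in B-like, 67.0 to 95.1 in monocyte-like and 8.1 to 15.9 in pDC-like cells. The pDC-like cells therefore had little Ciita mRNA beside 986, 1281, 1185 and 1734 CPM of H2-Aa. Cells with a Ciita UMI held more class II in most classes, but they were also deeper. In monocyte-like cells the median was 20 UMIs of the 4 summed genes per 1000 with a Ciita UMI and 2 without, at median depths of 9889 and 7713 UMIs. In mature DC-like cells the medians were 43.5 and 5, at depths of 11013 and 7994. In B-like cells they were 30 and 28, at 4384 and 3900.5. The part of depth in these differences was not tested.

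The agonists were then compared with the untreated library within each class. In macrophage-like cells no member was past the fold in the STING agonist library (0.807% of all genes were), with a median ratio of 0.16, nor in the LTbR agonist library (3.91% of all genes), with a median of -0.19 and 9 of 10 genes below 0. In the combination 1 of 10 was past it (5.21% of all genes): H2-DMb2, at 44.1 CPM untreated and 71.1 CPM combination, a ratio of 0.58 [0.44, 0.73]. This call was lost under 7 of 15 alternatives of the processing, among them equal weights for the clusters of the class. In monocyte-like cells 0 of 10 were past the fold in each comparison, beside 0.706%, 2.6% and 5.42% of all genes in the STING agonist, LTbR agonist and combination libraries. Their median ratios were 0.18, -0.14 and 0.01. The fold sizes of the classical genes in these classes were thus below 1.41, and with 1 library a group it is not known how far libraries of a group would lie apart.

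In the dendritic-like class as a whole, none of the 10 was past the fold in the STING agonist library (2.34% of all genes), 1 in the LTbR agonist library (1.96%) and 1 in the combination (4.27%). With the LTbR agonist all 10 ratios were below 0, with a median of -0.30, and H2-Oa, at 252 CPM untreated and 157 CPM LTbR agonist, was past the fold at -0.65. In the combination H2-DMb1 was at 373 CPM against 541, a ratio of -0.53 [-0.63, -0.43], a call that was lost under 5 of 16 alternatives. Without sub-cluster 8 the counts past the fold were the same 0, 1 and 1. Among all cDC2-like cells, sub-cluster 8 included, H2-DMb1 was at 517 CPM in the combination against 735 untreated. There H2-DMb2 made up 47.7% [45.1, 50.4] of both copies in the combination against 39.9% [38.6, 41.3] untreated. This did not hold in every part. In dendritic sub-clusters 5, 8 and 9 H2-DMb1 was lower and H2-DMb2 higher in the combination, and in sub-cluster 3 both were lower. In sub-cluster 4 H2-DMb1 was at 447 CPM untreated and 515 combination, and H2-DMb2 at 447 and 357. The part of the mix of sub-clusters was not tested.

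In B-like cells the combination had 3 of 10 members past the fold, all higher, beside 27% of all genes in either direction, and all 10 ratios were above 0, with a median of 0.25. The 3 were Ciita, at 93.2 CPM untreated and 177 CPM combination (0.86), H2-Oa, at 126 and 237 CPM (0.86), and H2-DMb1, at 69.9 and 119 CPM (0.69). The B-like cells were also spread differently over their sub-clusters. Sub-cluster 5, with H2-Oa among its 10 leading genes, held 3 of the 46 untreated and 101 of the 428 combination cells. H2-Oa had a ratio of 0.96 within sub-cluster 0, 0.17 within sub-cluster 1 and -0.27 within sub-cluster 5, where the untreated value rests on 3 UMIs. The part of this spread in the result was not tested. The classical genes differed less, as H2-Aa at 3929 and 4635 CPM shows. In the LTbR agonist library 0 of 10 were past the fold (23.4% of all genes), and in the STING agonist library 0 of the 7 that reached 50 UMIs (30.3% of all genes). With 46 untreated cells the background share is high, and the count of 3, near it, is no result about the members.

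**Figure D3:**
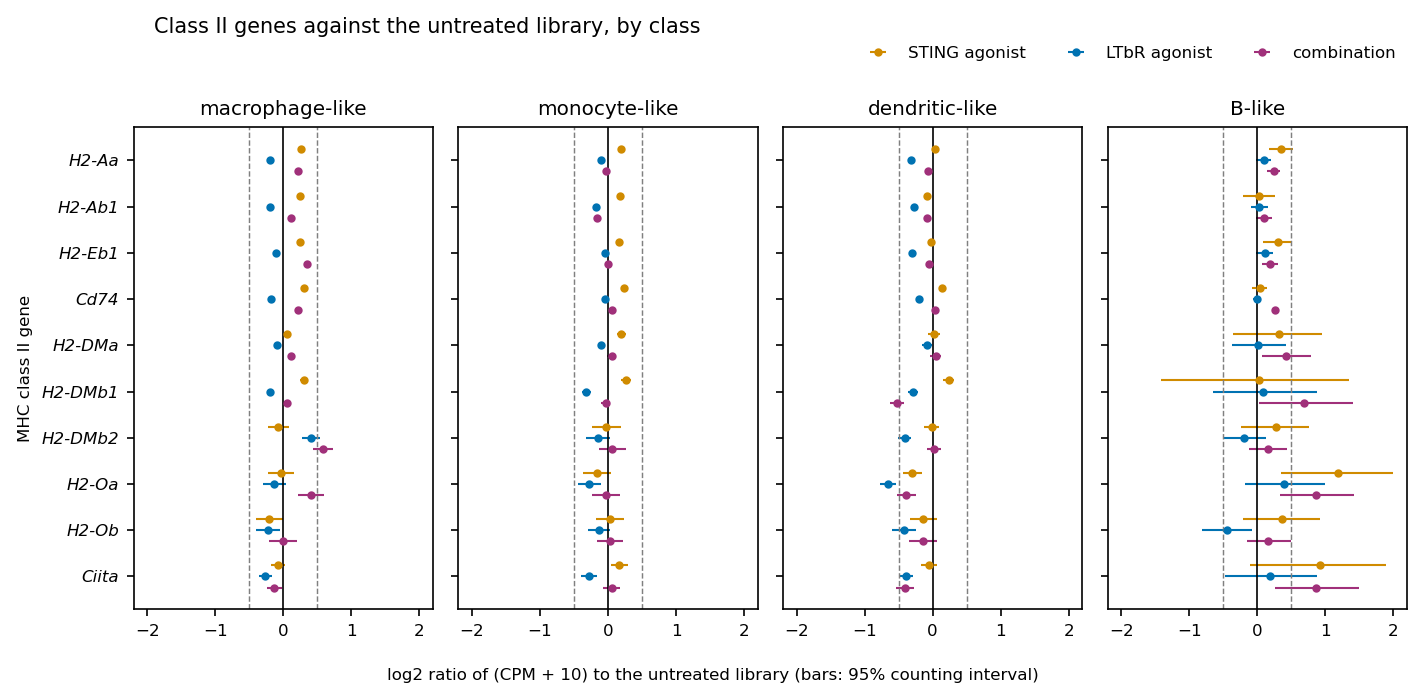
Log2 ratio of CPM + 10 to the untreated library for each member in the 4 classes, with a point and a 95% counting interval for each agonist library and dashed lines at 0.5 and -0.5, the call limit. Nearly all points of the macrophage-, monocyte- and dendritic-like classes lie between the lines, with H2-DMb2 in the macrophage-like combination (0.58) among those outside, and the bars of the B-like class are wide.

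Below the level of whole classes, single subsets stood apart from the untreated library. These subsets were taken up after their values had been seen, so what follows is a description of them.

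In the mature DC-like cells all 10 members were lower in the LTbR agonist library than in the untreated one, and close to it in the others. H2-Aa was at 5949 CPM untreated, 6175 STING agonist, 3177 LTbR agonist and 6043 combination, and H2-Ab1 at 3592, 3955, 1442 and 3698. Cd74 was at 10960, 13035, 5495 and 12469 CPM, and H2-Eb1 at 4812, 4962, 2313 and 4839. Of the editors, H2-DMa was at 179, 150, 91.6 and 232 CPM and H2-DMb2 at 237, 320, 93.6 and 264. Ciita was at 109, 112, 40.6 and 114 CPM. Over all mature DC-like cells the LTbR agonist library alone was low for each of these genes. The combination, which received the same antibody, was not.

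All 10 members were past the fold below untreated, beside 7.65% of all genes, with a median ratio of -0.99 against 0.01 over all genes. The ratio was -1.31 [-1.40, -1.23] for H2-Ab1, -1.24 [-1.67, -0.81] for Ciita, which rests on 39 UMIs against 159, -0.99 [-1.04, -0.95] for Cd74 and -0.69 [-1.20, -0.17] for H2-Ob. In the STING agonist library 0 of 10 were past the fold (13.7% of all genes in either direction), with a median of 0.04, and in the combination 0 of 10 (19.6%), with a median of 0.03. Set directly against the LTbR agonist library, the combination had all 10 members higher, by a median of 1.12 (0.52 to 1.40). The cells numbered 154, 50, 111 and 60, at median depths of 9171.5, 9100.5, 7571 and 8920.5 UMIs.

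The marks of mature dendritic cells were given by 8 markers, none of them past the fold with the LTbR agonist or the STING agonist. In the combination Ccl22 (-0.53) and Socs2 (-0.76) were past it, both lower. Fscn1 was at 2283 CPM untreated and 2223 LTbR agonist, the chemokine Ccl22 at 1068 and 1024, the calcium channel subunit Cacnb3 at 780 and 819, and the enzyme gene Nudt17 at 130 and 132. The other 4 were lower, Ccr7 at 3944 and 3121 CPM (-0.34), Il4i1 at 442 and 344 (-0.35), Tmem123 at 1594 and 1325 (-0.26) and Socs2 at 508 and 358 (-0.49). Cd80, a ligand of CD28 on T cells, was at 399 and 573 CPM. It was past the fold higher (0.51), as 1 of the 3 costimulatory genes. Summed over the 6 dendritic markers, one of which is Ccr7, the values were 4488 and 3596 CPM (5 and 3 detected, with Siglech at 0 in both and Cd209a and Xcr1 at 0 in the LTbR agonist library). B cell markers summed to 4.8 and 4.2 CPM (3 and 2 of 5). The sums were, for macrophage markers 35 and 15.6 (5 and 3 of 5), for monocyte markers 267 and 253 (5 and 4 of 5) and for neutrophil markers 338 and 229 (5 and 3 of 5). The part of these markers in the result was not tested.

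The lower level was present in both parts of these cells. Of the sub-clusters that made them up, one (sub-cluster 1, 72.1% of untreated and 81.1% of LTbR agonist cells) held less class II throughout, with H2-Aa at 3835, 3310, 2373 and 3664 CPM, and the other (sub-cluster 2) more, with H2-Aa at 11448, 12539, 7490 and 10220. All measured members were below untreated in both, and past the fold lower were 7 of 8 in sub-cluster 1 (7.13% of all genes, median -0.73) and 9 of 10 in sub-cluster 2 (22.2%, median -0.70). The latter had 20 LTbR agonist and 42 untreated cells, at median depths of 5152 and 9323 UMIs. Its mature markers Socs2 (-1.68), Il4i1 (-1.01), Ccr7 (-0.78), Ccl22 (-0.40) and Tmem123 (-0.32) were lower. Fscn1 (0.10), Cacnb3 (0.34) and Nudt17 (1.55, at 23.0 CPM untreated and 86.5 LTbR agonist) were higher. In sub-cluster 1 those depths were 7929.5 and 9152 UMIs, and Socs2, Il4i1 and Ccr7 had ratios of -0.47, -0.21 and -0.28. There Fscn1 (-0.21), Ccl22 (-0.0033), Cacnb3 (-0.10), Tmem123 (-0.35) and Nudt17 (-0.26) were also below 0. Within sub-cluster 2 the other agonist libraries were not close to untreated for every member. Ciita was there at 324 CPM untreated, 169 STING agonist, 180 LTbR agonist and 192 combination. H2-DMb1 was there at 319 CPM untreated and 133 combination. In sub-cluster 1 Ciita was at 29.4 CPM untreated, 74.9 STING agonist, 14.9 LTbR agonist and 59.2 combination. The part of depth and of these markers in the lower class II level was not tested. Counted by cell, with each cell thinned to 1000 UMIs, 56.9% of untreated and 34.6% of LTbR agonist cells had more than 10 class II UMIs, against 55.1% STING agonist and 55.0% combination, and the medians were 14, 12, 6 and 12.5 UMIs in the order untreated, STING agonist, LTbR agonist and combination.

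Some other genes of the pathway were lower in the same cells. Past the fold lower were 2 of 8 genes of the interferon-gamma signal and 2 of 5 measured endosomal enzymes, beside 7.65% of all genes. Those named here are outside the rule for named genes and were chosen after their values were seen. Irf1, which carries the interferon-gamma signal, was at 336 CPM untreated and 233 LTbR agonist (-0.51). The endosomal proteases Ctss and Lgmn were at 998 and 688 (-0.53) and at 259 and 107 (-1.20). None of the 3 measured genes of the X and Y box complex was past the fold.

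Monocyte-like cells fell into clusters that differed from untreated in opposite directions. Cluster 3, led by Lyz2, Hp, F13a1 and Vcan, genes of classical inflammatory monocytes, had more class II mRNA in both libraries with the antibody. H2-Aa was at 1295 CPM untreated, 1758 STING agonist, 3077 LTbR agonist and 3088 combination, H2-Ab1 at 1295, 1730, 2667 and 2662, and Cd74 at 4296, 5473, 8457 and 8888. H2-DMa was at 267, 339, 376 and 398 CPM, and Ciita at 44.5, 66.5, 88.0 and 85.2. The values with the antibody were close to each other and above the STING agonist ones, which were above untreated.

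In cluster 3, 5 of the 7 measured members were past the fold higher in the LTbR agonist library (4.39% of all genes), with a median of 0.98, and 8 of 8 in the combination (6.04%), with a median of 1.04. For H2-Aa the ratios were 1.24 [1.17, 1.31] and 1.25 [1.17, 1.32], and for Ciita 0.85 [0.52, 1.18] and 0.81 [0.45, 1.17]. Cells with none of the 10 genes among 1000 UMIs were 38.5% untreated, 37.2% STING agonist, 22.5% LTbR agonist and 15.8% combination, and those with more than 10 were 20.3%, 27.7%, 40.8% and 41.6%. Beside this, macrophage markers summed to 1236, 1447, 1347 and 1264 CPM (5 of 5 in each), dendritic markers to 104, 136, 34.5 and 52.6 (4 or 5 of 6), and B markers to 6.0, 3.2, 19.3 and 20.01 (1 to 3 of 5). The B marker Ms4a1 and the cDC1 marker Xcr1 were at 0 in every library. The B marker sums are below 1% of the H2-Aa level, and their part in the result was not tested.

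**Figure D4:**
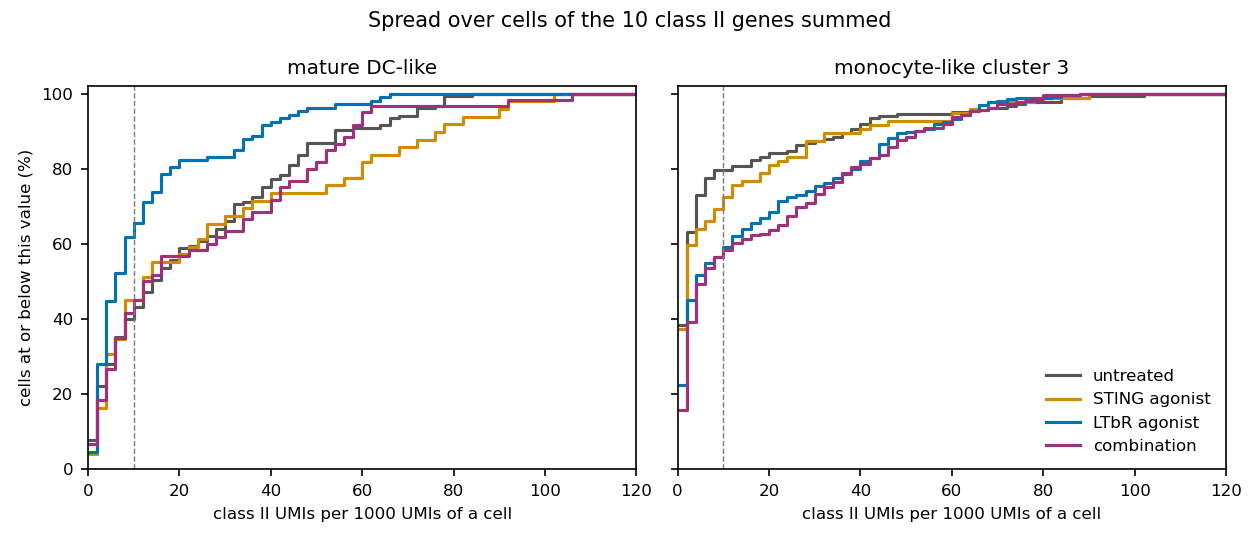
Share of cells (vertical axis, percent) at or below a given number of class II UMIs per 1000 UMIs (horizontal axis, 10 genes summed, cells thinned to the same depth) in the mature DC-like cells and in monocyte-like cluster 3, one line for each library, with a dashed line at 10. On the left the LTbR agonist line runs above the others (34.6% of its cells exceed 10), and on the right both libraries with the antibody run below the untreated line (40.8% and 41.6% exceed 10, against 20.3%).

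Cluster 20, led by Ace, Adgre4, Ear2 and Nr4a1, genes of patrolling non-classical monocytes, had less in the combination. H2-Aa was at 2022, 1367, 1400 and 930 CPM, H2-Ab1 at 1603, 1635, 1188 and 756, H2-Eb1 at 1116, 832, 976 and 484 and Cd74 at 6640, 4682, 5117 and 4475. Of 7 measured members 6 were past the fold lower in the combination (7.91% of all genes), with a median of -0.99, -1.11 [-1.24, -0.98] for H2-Aa and -0.57 for Cd74. Ciita, at 65.6 and 46.0 CPM, was the member that was not past it. Monocyte markers summed to 4030, 3542, 3535 and 3558 CPM and macrophage markers to 1201, 1280, 1214 and 1056 (5 of 5 of each list in every library). The part of these in the result was not tested. No marker of the monocyte list was among the 10 leading genes of cluster 20, so its place in the class rests on the other markers.

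These clusters also made up more of the monocyte-like cells with the antibody: cluster 3 was 12.8%, 13.8%, 23.9% and 21.4% and cluster 20 was 5.19%, 4.84%, 14.2% and 23.8% of them. A class-wide median ratio of 0.01 in the combination thus held clusters at 1.04 and -0.99. Whether the 2 clusters differed in their response could not be tested with 1 library a group.

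**Figure D5:**
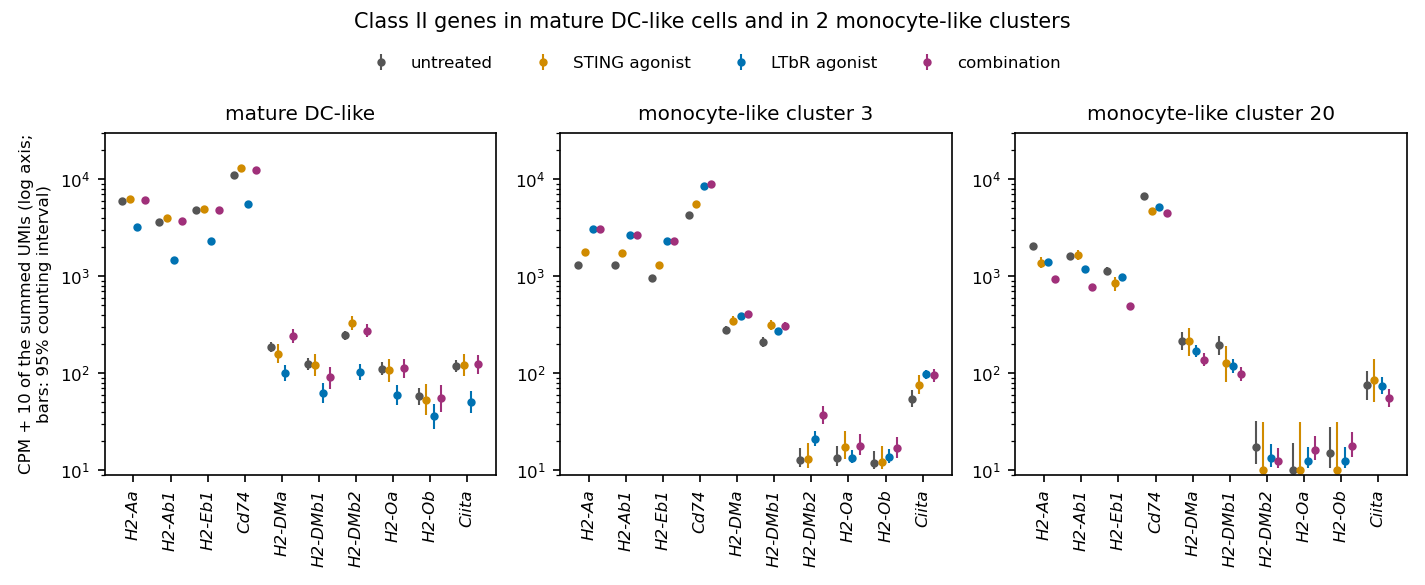
CPM + 10 of the 10 genes on a log axis in the mature DC-like cells and in monocyte-like clusters 3 and 20, with a point and a 95% counting interval for each library. The LTbR agonist points are the lowest for every gene on the left (H2-Aa 3177 CPM), high for the classical genes in the middle (H2-Aa 3077 CPM against 1295 untreated), and the combination is lowest for the classical genes on the right (H2-Aa 930 CPM).

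Macrophage-like cells likewise held clusters with different values. Cluster 5, led by C1qa, C1qb, Apoe and Trem2, which mark tissue macrophages of tumours, was 74.6% of untreated and 40.7% of combination macrophage-like cells. Its H2-Aa was at 6140, 7521, 5829 and 8283 CPM and its H2-Eb1 at 4623, 5680, 4722 and 6835. In the combination 3 of 10 members were past the fold higher (2.68% of all genes): H2-Eb1 at 0.56, H2-DMb2 at 0.93 and H2-Oa at 0.80, with all 10 ratios above 0 and a median of 0.39. Cluster 14, led by Retnla, Ccl8, Mrc1 and Pf4, was 3.94% of untreated and 32.2% of combination cells. There H2-Aa was at 6970, 4936, 5264 and 5046 CPM, and 5 of 8 measured members were past the fold lower in the combination (8.84% of all genes), with a median of -0.53. B markers in all macrophage-like cells summed to 5.2, 7.0, 5.9 and 14.6 CPM (3, 3, 4 and 5 of 5 detected), beside 71.1 CPM of H2-DMb2 in the combination. Its part in the H2-DMb2 and H2-Oa values was not tested.

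The pDC-like cells, 106, 35, 70 and 28 in the 4 libraries, had H2-Ab1 at 603, 787, 811 and 1179 CPM and Cd74 at 3514, 4945, 4343 and 5796. In the combination 5 of 7 measured members were past the fold higher (5.72% of all genes), with a median of 0.66, 0.81 [0.65, 0.96] for H2-Aa and 0.96 for H2-Ab1.

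The other genes of the pathway are given by lists. Beside them, 0.807%, 3.91% and 5.21% of all genes were past the fold in macrophage-like cells (STING agonist, LTbR agonist and combination). The shares were 0.706%, 2.6% and 5.42% in monocyte-like and 2.34%, 1.96% and 4.27% in dendritic-like cells. Of the 7 genes of the X and Y box complex (Rfx5, Rfxank, Rfxap, Nfya, Nfyb, Nfyc and Creb1), none was past the fold in the macrophage-, monocyte- or dendritic-like class in any agonist library. Of the 8 genes of the interferon-gamma signal, Socs1, an inhibitor of JAK kinases, was higher with the STING agonist in macrophage-like cells (58 and 118 CPM, 0.92), monocyte-like cells (0.72) and dendritic-like cells (71 and 132 CPM, 0.80), and Irf1 in dendritic-like cells (260 and 414 CPM, 0.65). In the combination Socs1 was higher in macrophage-like (0.73) and monocyte-like cells (0.69), and its ratio in dendritic-like cells was 0.48. The LTbR agonist library had 1 of the 8 genes lower in macrophage-like cells and 1 in monocyte-like cells. Ifng itself was at 306.8 CPM untreated, 338 STING agonist, 178 LTbR agonist and 216 combination in T- or NK-like cells, lower in both libraries with the antibody.

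Of the 7 endosomal enzymes, those past the fold in macrophage- and monocyte-like cells were lower. With the LTbR agonist these were Ctss (-0.51) and Ctsl (-0.56), both cathepsins that cut the invariant chain, in macrophage-like cells and the legumain gene Lgmn (-0.59) in monocyte-like cells. In the combination they were Ctsl (-0.58) and Lgmn (-0.63) in macrophage-like cells and Ctsl (-0.83), Ctsb (-0.56), Ctsd (-0.51) and Lgmn (-1.02) in monocyte-like cells. In dendritic-like cells Lgmn was lower with the LTbR agonist (-0.64), and March1, the ligase that marks surface class II for removal, was lower with the LTbR agonist (-0.59) and in the combination (-0.69). Of the 3 costimulatory genes, Cd80 was higher in monocyte-like cells with the LTbR agonist (0.77) and in the combination (0.62).

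In B-like cells the genes past the fold in the combination were Ctsb (0.65), Lgmn (0.55), Ifngr1 (0.51) and Irf2 (0.53), against the same 27% of all genes. With the STING agonist all 3 measured interferon-gamma genes were past it and higher, with Jak1 at 0.87 and Irf2 at 1.36 among them, on 14 cells and against 30.3% of all genes. With the LTbR agonist Ctsb (1.22), Ifngr1 (0.50), Irf2 (0.60) and Cd80 (0.73) were higher and March1 (-0.69), Cd86 (-0.61) and H2-Eb2 (-0.75) lower, against 23.4%. H2-Eb2, a further class II beta gene that is no member, was at 135, 214, 76.5 and 159 CPM there.

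The genes whose pattern was most like that of H2-Aa, H2-Ab1, H2-Eb1 and Cd74 were sought among 12440 genes over 101 sums of a cluster in a library. These points share libraries, depth and the clustering, and the correlations (Pearson's r on log2 of CPM + 10) are a description. The 10 highest outside the members were Ifi30 (0.954), the lysosomal thiol reductase that unfolds antigen, Ly86 (0.938), Ctsh (0.936), Plekho1 (0.933), Aif1 (0.925), Ctsz (0.923), Ctss (0.919), Cxcl16 (0.911), Sdc3 (0.910) and Lgmn (0.9005). Of the members, H2-DMb1 (0.953), H2-DMa (0.946) and Ciita (0.929) were in the same range, and H2-DMb2 (0.739), H2-Ob (0.465) and H2-Oa (0.441) below it. The list did not hold within the 4 classes: within the 51 sums of the 4 classes alone it shared 0 of these 10 genes, and Eva1b (0.835) led.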

How the data were processed

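Live CD45+ cells of pooled tumours were captured in 4 libraries with 10x 5′ chemistry, 1 library for each group. Per the labels, the authors ran Cell Ranger 7.1.0 on mm10 and deposited 1 matrix of raw UMI counts with 32285 genes, 24839 barcodes and 192887078 UMIs. The library of a cell was read from its barcode suffix.

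The study's filter was applied (300 to 5000 genes, at most 6% mitochondrial UMIs). Over all their barcodes the libraries held 32529174 to 60770280 UMIs. Cells were clustered in Python 3.11.15 with scanpy 1.11.5 (2000 variable genes, 30 components, 20 neighbours, Leiden resolution 1), leaving out 11 class II genes and the V(D)J genes. Clusters were named from marker lists, by thresholds set after the clusters had been seen, so the classes are rebuilt and not the authors'. Some sub-clusters of the dendritic- and B-like classes were left out. Their 10 leading genes held more markers of another class, or their score was of another lineage. Among those kept, dendritic sub-clusters 3 and 11 (92 and 53 cells) scored highest for mast or basophil and for tumour or stroma markers. These scores were low, at -0.0097 and 0.14. Dendritic sub-cluster 8 scored highest for monocyte markers but had none of them among its leading genes, and it was kept; leaving it out was an alternative chosen after seeing the data. Doublets were kept, and removing cells with a Scrublet score above 0.2 was an alternative.

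UMIs were summed by class and library and divided by the class total. Intervals are exact Poisson for CPM, exact Clopper-Pearson for shares and a square-and-add combination for ratios, all for counting error only. For values by cell, each cell was thinned to 1000 UMIs and shallower cells were left out. With 1 library a group no p-value was computed, and Poisson intervals do not cover differences between tumours, mice or captures. The methods of the study mention 2 independent experiments, and which of them gave these files is not given in the sources used here. Ratio scripts were tested on simulated data. TMM factors came from edgeR 4.0.16 in R 4.3.3. Other alternatives changed the scaling, pseudocount, denominator, weights of cells and clusters, clustering, doublet handling, quality filter and naming.

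The members and gene lists were chosen with earlier results of these data known. Named were the 10 members, pathway genes past the fold in the macrophage-, monocyte-, dendritic- or B-like class (given as counts where a gene is not reported here), the 10 genes of most similar pattern, and leading and marker genes where a cluster is described. Genes and subsets taken up otherwise are said to be so. Promoter windows are from RefSeq on GRCm38.p6. Windows for H2-Ab1, Ciita and Cd74 were not used here.

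Some genes of the lists are not reported here.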

Additional observations from a re-analysis of the deposited data

Results flagged for a closer look

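The members differed from untreated in opposite directions between clusters of monocyte-like cells in the combination, with a median log2 ratio of 1.04 in cluster 3 and of -0.99 in cluster 20. The difference was not tested, since each group is 1 library.

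With the LTbR agonist the members had a median log2 ratio of 0.98 in monocyte cluster 3 and of -0.99 in the mature DC-like cells. Every measured member was above 0 in the former and below 0 in the latter, and this difference was not tested either.

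H2-Aa mRNA also appeared in a T-like cluster outside the comparisons, cluster 26, led by Il17a, Trdv4, Cd163l1 and Tcrg-V6, which mark gamma delta T cells that make interleukin 17. It was at 179 CPM untreated, 178 STING agonist, 647 LTbR agonist and 801 combination. The median cell had 0 class II UMIs among 1000 in every library, and cells with more than 10 made up 2.00%, 2.38%, 2.30% and 5.93%. Macrophage markers summed to 96.8, 54.4, 279 and 368 CPM and B markers to 19.9, 14.8, 29.2 and 65.2 in the same cells, with 1 to 4 of 5 B markers detected and Ms4a1 at 0 in every library, and their part in the H2-Aa value was not tested.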

How the results depend on the processing

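No paired analysis was possible because each group is 1 library and the labels give no replicate numbers, and no library could be left out of a comparison. Of 335 counts and values under an alternative, 280 stayed within 1.5 times the main count or within its interval. The 10 of 10 members lower in mature DC-like cells with the LTbR agonist were 8 to 10 over 15 alternatives, with a median ratio of -1.07 to -0.66. In cluster 3 the count was 5 to 6 with the LTbR agonist and 6 to 8 in the combination, in cluster 20 it was 6 to 7 in the combination, and in cluster 5 it was 2 to 3. Of 2208 single-gene ratios under an alternative, 1996 kept their sign.

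The counts of members past the fold in whole classes were less steady. In macrophage-like cells the 1 in the combination (H2-DMb2) became 2 with a pseudocount of 1 CPM or with cells holding markers of another class removed, and 0 with a pseudocount of 50 CPM, means over cells or clusters, class II genes kept in the clustering, resolution 2, the wider quality filter or classes by marker score. With the LTbR agonist their 0 became 1 as a mean over clusters. The 0 in monocyte-like cells with the LTbR agonist became 1 with a pseudocount of 1 CPM and 4 at resolution 2. In dendritic-like cells the marker score gave 1 with the STING agonist (0 in the main count), 4 with the LTbR agonist and 3 in the combination (1 each), the mean over clusters gave 2 with the LTbR agonist, and the 1 in the combination became 0 with the other denominator, a pseudocount of 50 CPM, means over cells or clusters, or all sub-clusters kept. In B-like cells the 0 with the STING agonist became 5 with the wider quality filter, the 0 with the LTbR agonist became 1 with TMM factors, means over cells, the wider filter or the marker score, and the 3 in the combination became 1 with all sub-clusters kept. H2-DMb1 there reversed, from 0.69 to -0.59, under the marker score. TMM factors moved the median of all genes in B-like cells with the STING agonist from 0.08 to -0.22. The mean over clusters could not be computed for B-like cells, since the untreated sub-clusters were too small.

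In mature DC-like cells the 0 with the STING agonist became 1 (means over cells, sub-clusters kept), 2 (wider filter) and 3 (mean over clusters), and the 0 in the combination became 1 (TMM factors, resolution 2, sub-clusters kept), 2 (mean over clusters) and 3 (marker score). With the STING agonist the 1 in cluster 3 became 2 (markers of other classes removed, pseudocount of 1 CPM, means over cells) and the 3 in cluster 20 became 1 (pseudocount of 50 CPM). With the LTbR agonist the 2 in cluster 20 became 1 (Scrublet) and 4 (means over cells), and the 0 in cluster 5 became 1 (pseudocount of 1 CPM, other denominator).

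For the pathway lists, the mean over clusters moved macrophage-like cells from 1 to 3 with the STING agonist and from 3 to 0 with the LTbR agonist, monocyte-like cells from 6 to 3 and dendritic-like cells from 1 to 0 in the combination. A pseudocount of 50 CPM gave 0 in dendritic-like cells with the LTbR agonist (2) and in the combination (1) and in B-like cells in the combination (4). The order of levels held in 2 of 4 libraries with classes by marker score. H2-DMb2 was 79.0% of both copies in B-like cells under the wider filter. Of the 10 genes of most similar pattern, 6 were shared with Spearman's correlation and 0 with the 4 classes alone. The causes of these changes were not tested.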
